A study of Mus musculus with 22 samples.

Results

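The 10 genes described here encode enzymes that make, recycle or break down pyrimidine nucleotides: Cad, Dhodh, Umps, Uck1, Uck2, Tk1, Upp1, Tymp, Cda and Uprt. They were chosen by gene symbol, as 10 of the 55335 genes in the table. The set was built around Upp1, which was selected on the measured difference between knockdown and control embryos, because that difference had opposite signs in morulae and in blastocysts. The values of Upp1 in those comparisons are therefore given as a description, without a test. The other 9 genes were selected on their place in the pathway, with earlier results of these data known, and their tests have that limit.

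Cells obtain pyrimidine nucleotides by de novo synthesis, which builds the ring on a chain of enzymes and ends in UMP, and by salvage, in which kinases add phosphate to ready-made nucleosides such as uridine and thymidine. Phosphorylases such as the product of Upp1 work the other way and split a nucleoside into its base and a sugar phosphate. UTP from either route feeds RNA synthesis, CTP, the deoxynucleotides needed for each round of DNA replication, and the UDP-sugars used for glycogen and for sugar chains on proteins, so the pathway is in steady use in cleaving embryos.

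The study compared control mouse embryos with embryos depleted of H2A.Z, a histone variant encoded by H2afz, to see how gene expression in preimplantation development changes without it. RNA-seq of pools of 15 embryos per library used Smart-seq2, a method that copies whole polyadenylated transcripts into cDNA and amplifies them. There were 22 libraries. All embryos were of strain B6D2F1, and the knockdown (KD) embryos had received about 10 pl of a mixture of siRNAs against H2A.Z at 20 µM as zygotes, 20 to 22 h after hCG, the hormone that triggers ovulation. The 6 groups were 4 control and 3 KD libraries of 2-cell embryos (43 to 44 h after hCG), 4 control and 3 KD libraries of morulae (78 h), and 4 control and 4 KD libraries of blastocysts (94 h). The study reported that far fewer KD than control embryos formed blastocysts, while development to the morula was unaffected. How KD embryos were picked for the 94 h libraries is not stated. An effect of the knockdown there and a difference in developmental progress cannot be told apart. The methods mention controls without injection for qPCR, and how the control embryos of these libraries were treated is not stated. The spread between libraries is a spread between pools, and nothing in the labels says that pools came from separate cultures.

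Levels below are FPKM as deposited, the fragments of a transcript per unit of its length and per unit of the library's mapped total. They can be compared between genes because they are divided by gene length, and they are relative to all mRNA of a library, not amounts per embryo. How many reads stand behind a value is not known, which leaves its counting error without an interval. A relative depth estimated from the lowest values of each library lay between 14.9 and 28.8, and it was 14.9 to 22.2 in control and 17.3 to 21.3 in KD blastocysts. Between 10143 and 12090 genes reached an FPKM of 1 in a library.

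The knockdown target was measured first. H2afz was at 1244, 1236, 905 and 1178 FPKM in control 2-cell embryos and at 415, 139 and 112 in KD 2-cell embryos. In morulae the control libraries had 1158, 1336, 1511 and 1421 FPKM and the KD libraries 30.3, 25.7 and 29.0. Control blastocysts had 2656, 2431, 1945 and 2055 FPKM and KD blastocysts 64.2, 67.2, 53.2 and 57.6. At each stage every KD library lay below every control library, and the first 2-cell KD library kept the most. H2afv, which encodes the related H2A.Z.2, was at 83.7 to 97.6 FPKM in KD and 96.8 to 118 in control 2-cell embryos, 9.90 to 12.9 against 92.5 to 113 in morulae, and 10.6 to 19.9 against 49.9 to 63.5 in blastocysts.

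Differences were tested with limma on log2(scaled FPKM + 1), where each library is divided by a factor from the median ratio to the other libraries. A gene was tested if it reached an FPKM of 1 in at least 3 libraries of the comparison, and it was called if its p adjusted over all genes tested was under 0.05. On this scale H2afz fell by 5.41 in morulae (SE 0.17, adjusted p 9.7e-08) and fell by 5.19 in blastocysts (SE 0.20, adjusted p 3.6e-08), in all 3 and all 4 KD libraries. H2afv fell by 2.93 in morulae (SE 0.15, adjusted p 2.9e-06) and fell by 1.86 in blastocysts (SE 0.22, adjusted p 8.0e-05), again in every KD library. At the 2-cell stage the difference of H2afz was -2.53 (SE 0.38) with an adjusted p of 0.543 in limma, which does not pass, although all 3 KD libraries were lower. Without 2-cell KD replicate 1 the H2afz difference was -3.12 with an adjusted p of 0.000907, and in 1 fit over all 22 libraries it was -2.49 and passed at 0.000347. H2afv differed there by -0.23 (SE 0.16, adjusted p 0.84).

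Upp1 (ENSMUSG00000020407.13, chr11:9118103-9136170 on GRCm38) encodes uridine phosphorylase 1, which splits uridine into uracil and ribose 1-phosphate. Its levels in control 2-cell embryos were 10.3, 7.99, 11.0 and 10.0 FPKM, and in KD 2-cell embryos 7.83, 8.95 and 7.16. These ranges overlap, since the lowest control library lies below the highest KD library. In control morulae Upp1 was at 2.23, 0.71, 0.48 and 1.24 FPKM, and in KD morulae at 5.87, 4.22 and 7.49. All 3 KD libraries lie above the control libraries, of which only replicates 1 and 8 pass an FPKM of 1. In control blastocysts it was at 114, 114, 78.8 and 73.3 FPKM, and in KD blastocysts at 18.2, 25.9, 28.3 and 18.6. Here all 4 KD libraries lie below the lowest control library.

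Ordered by mean level, Upp1 was highest in control blastocysts at 95.1 ± 22.1 FPKM (SD, n = 4), followed by KD blastocysts at 22.8 ± 5.11 (SD, n = 4). Control 2-cell embryos at 9.84 ± 1.29 (SD, n = 4) and KD 2-cell embryos at 7.98 ± 0.906 (SD, n = 3) came next. KD morulae at 5.86 ± 1.63 (SD, n = 3) and control morulae at 1.16 ± 0.776 (SD, n = 4) were lowest. Along this order the ranges of neighbouring groups overlap in the 2-cell pair, and between KD 2-cell embryos and KD morulae; the other neighbouring groups do not overlap. The mean in KD morulae was 5.03 times that in control morulae, and the mean in control blastocysts was 4.18 times that in KD blastocysts. From control morulae to control blastocysts the mean level was 81.7 times higher, and from KD morulae to KD blastocysts 3.88 times higher. In control libraries the 2-cell mean was 8.45 times the morula mean.

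As log2 differences, given without a test, Upp1 was 1.79 higher in KD than in control morulae and differed by -2.01 between KD and control blastocysts, and in the single fit over both stages, which has its own scaling, the difference in blastocysts minus that in morulae was -3.84. In control embryos the log2 difference was -2.50 from the 2-cell stage to the morula and 5.45 from the morula to the blastocyst. The added 1 shortens differences of genes with low FPKM. With 0.1 added instead, the morula difference of Upp1 was 2.52, and the difference in blastocysts minus that in morulae was -4.61. In control embryos its log2 difference was then -3.327 from the 2-cell stage to the morula and 6.385 from the morula to the blastocyst. Only the 2-cell comparison of Upp1 was not used to choose it. There limma gave a log2 difference of -0.21 (SE 0.17, 95% interval -0.57 to 0.16) with an adjusted p of 0.85, which does not pass, and 2 of the 3 KD libraries lay below all control libraries.

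**Figure D1:**
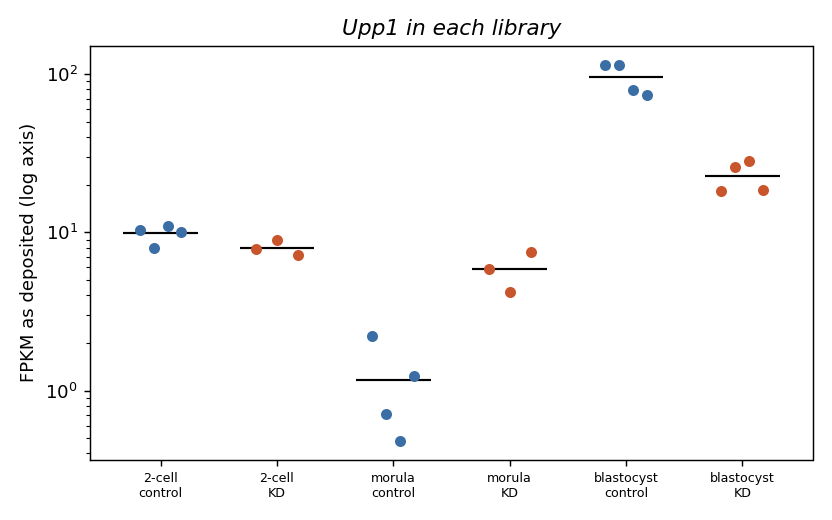
Upp1 in FPKM as deposited on a log axis, with a point for each library (blue control, orange KD) and a bar at the mean of each of the 6 groups. KD morulae (4.22 to 7.49 FPKM) lie above control morulae (0.48 to 2.23), and KD blastocysts (18.2 to 28.3) lie below control blastocysts (73.3 to 114).

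Upp1 also changed its place among the 10 genes. It ranked 4 of 10 by mean level in control and 3 of 10 in KD 2-cell embryos, 8 of 10 in control and 4 of 10 in KD morulae, and 2 of 10 in control and 3 of 10 in KD blastocysts. Uck2 was the most abundant of the 10 genes at the 2-cell stage, with means of 46.7 and 40.3 FPKM in control and KD embryos, and Tk1 was the most abundant in the 4 later groups, with means from 86.5 to 146. Upp2, the other uridine phosphorylase gene, was at or below 0.00692 FPKM in every library.

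Of the 9 genes besides Upp1, all 9 could be tested in 2-cell embryos and 7 at each later stage, where Cda and Uprt did not reach the minimum FPKM. At the 2-cell stage limma called 0 of the 9 higher and 0 lower, against 0% and 0% of the 12160 genes tested; at an unadjusted p under 0.05 there were 1 of the 9, Tk1, and 701 of all genes. In morulae 0 of 7 rose, against 4.23% of the 10989 genes tested, and 2 of 7 fell, against 9.04%. In blastocysts 2 of 7 rose, against 16.7% of the 11828 genes tested, and 1 of 7 fell, against 19.8%. The median log2 difference of these genes was -0.35, -0.36 and 0.25 from the 2-cell stage to the blastocyst, where the medians of all genes tested were 0.00, 0.02 and 0.00. Separation of all KD from all control libraries, given for single genes below, was common: in morulae 736 of all genes tested had every KD library above and 2513 every KD library below the control libraries, and in blastocysts 1722 and 2360.

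The difference between both knockdown effects, blastocyst minus morula, was tested in a single fit over the 15 libraries of both stages. It was called in the higher direction for 2 of 7 genes, against 5.43% of the 12727 genes tested, and in the lower direction for 0 of 7, against 6.32%. The median of the 7 was 0.72, and that of all genes -0.01. Between the control groups, 5 of 9 genes were higher in morulae than in 2-cell embryos, against 40.6% of the 14686 genes tested, and 4 of 9 were lower, against 40.4%. From control morulae to control blastocysts 0 of 9 rose, against 24.3%, and 5 of 9 fell, against 21.7%. Cda and Uprt entered the control fit only through the 2-cell group, where they are high, so they had to differ from it, and these counts are no support for a statement about the set. The comparisons of a stage and the comparisons between control stages share their control libraries.

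Scaling mattered for the morula comparison. With FPKM as deposited, the median difference of all genes moved by -0.10 in morulae, by 0.12 in the difference between the knockdown effects and by 0.11 between control morulae and 2-cell embryos. The morula calls were then 281 higher and 1553 lower (15.3% higher), in place of 465 higher and 993 lower (31.9% higher). The number of morula calls also depended on single libraries: it was 579 without KD replicate 1, 551 without KD replicate 2, 910 without control replicate 7 and 855 without control replicate 8. Leaving out any of the 7 morula libraries left 2 of the 7 pathway members called.

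De novo synthesis begins with Cad (chr5:31054780-31078479), whose product joins the first 3 steps in a single protein. Cad was at 6.22, 4.53, 3.11 and 3.18 FPKM in control morulae and at 5.33, 4.92 and 3.96 in KD morulae, and these ranges overlap. In blastocysts it was at 0.986, 1.57, 1.50 and 1.46 FPKM in control and at 3.91, 2.66, 5.25 and 3.79 in KD libraries. All 4 KD blastocyst libraries lie above all 4 control libraries, within the range of the morulae or just below it. Cad rose in KD blastocysts by 1.03 on the log2 scale (SE 0.17, adjusted p 0.00081), and the call held in all 14 alternatives, with adjusted p from 0.000154 to 0.00553. The morula difference was 0.26 (SE 0.19, adjusted p 0.38), and the difference between the effects was 0.72 (SE 0.25) with an adjusted p of 0.0699 in limma, which does not pass. It passed without blastocyst KD replicate 4, at 0.83 and an adjusted p of 0.0355, and with 0.1 added in place of 1, at 1.06 and 0.0433. In control embryos Cad rose by 0.96 from the 2-cell stage, where it was at 1.11 to 2.00 FPKM, to the morula, and then fell by 1.10 to the blastocyst, with adjusted p of 6.2e-05 for each step.

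Dhodh (chr8:109591343-109608673) encodes the mitochondrial enzyme that oxidises dihydroorotate. It was at 11.3, 6.43, 7.58 and 9.09 FPKM in control morulae and at 4.35, 3.27 and 3.28 in KD morulae. Every KD morula library lies below every control library. In blastocysts Dhodh was at 3.78, 8.14, 6.13 and 3.72 FPKM in control and 4.44, 6.31, 5.10 and 7.15 in KD libraries. The blastocyst groups overlap, with the KD libraries inside the control range. Dhodh fell in KD morulae by 0.93 (SE 0.18, adjusted p 0.0104), and it was not called in blastocysts, at 0.12 (SE 0.23, adjusted p 0.73). The difference between these effects was 1.01 (SE 0.30, adjusted p 0.0397), a call that was lost in 12 of 19 alternatives. In 2-cell embryos Dhodh was at 1.71 to 4.33 FPKM in control and 1.25 to 3.16 in KD libraries, and in control embryos it rose by 1.09 to the morula (SE 0.23, adjusted p 0.000434). From control morulae to control blastocysts it fell by 0.61 (SE 0.23, adjusted p 0.0393), a call lost without morula control replicate 1, 7 or 8 or blastocyst control replicate 1, 5 or 6, with adjusted p up to 0.129.

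Umps encodes the enzyme whose 2 activities make UMP from orotate. It was at 49.2, 42.5, 54.1 and 61.3 FPKM in control morulae and at 30.1, 36.2 and 44.5 in KD morulae, where only the highest KD library reaches the control range. Its morula difference of -0.36 (SE 0.20) did not pass in limma, with an adjusted p of 0.263. In blastocysts the control libraries ranged from 22.1 to 33.2 FPKM and the KD libraries from 27.5 to 42.6, with a log2 difference of 0.25 (SE 0.20) and an adjusted p of 0.345. The difference between the effects was 0.57 (SE 0.29, adjusted p 0.221). Control embryos had 8.11 to 18.8 FPKM at the 2-cell stage; Umps rose by 1.81 to the morula (adjusted p 2.4e-06) and fell by 0.85 to the blastocyst (adjusted p 0.00564).

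Among the salvage kinases, Uck1 (chr2:32255002-32260159) encodes uridine-cytidine kinase 1, which phosphorylates uridine and cytidine. It was at 10.8, 7.78, 10.2 and 12.1 FPKM in control morulae and at 3.80, 3.94 and 4.81 in KD morulae. No KD morula library reaches the control range. Control blastocysts had 5.51, 10.8, 10.5 and 6.48 FPKM and KD blastocysts 8.75, 8.57, 6.67 and 7.22. These overlap, and the KD libraries again lie inside the control range. Uck1 fell in KD morulae by 0.99 (SE 0.19, adjusted p 0.00942) and was not called in blastocysts, at -0.03 (SE 0.21, adjusted p 0.929). The difference between these effects was 0.93 (SE 0.29, adjusted p 0.0475) and was lost in 12 of 19 alternatives. In 2-cell embryos Uck1 was at 0.514 to 3.08 FPKM in control and 0.101 to 1.22 in KD libraries. Between control groups it rose by 2.11 to the morula (SE 0.27, adjusted p 4.0e-06), and its difference of -0.31 from there to the blastocyst did not pass in limma (SE 0.27, adjusted p 0.39).

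The calls of Uck1 and Dhodh stand on the same libraries. In morulae they held without any 1 library, with adjusted p from 0.0134 to 0.0441 for Uck1 and from 0.0137 to 0.0495 for Dhodh, and both were lost without the filter on low FPKM (adjusted p 0.055 and 0.0547). For the difference between the effects, both were lost without morula control replicate 1, 7 or 8, morula KD replicate 1 or 2, blastocyst control replicate 1 or 6, and blastocyst KD replicate 4 or 6; Uck1 was also lost without blastocyst KD replicate 1, and Dhodh without morula KD replicate 6. Over the 15 fits that leave out a library, the adjusted p ran from 0.0326 to 0.112 for Uck1 and from 0.0169 to 0.0908 for Dhodh, with log2 values of 0.82 to 1.05 and 0.87 to 1.19. Of the transcript stretches of 75 bases in Uck1, 12.7% also occur in Gm4482, which was at or below 0.385 FPKM in every library.

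Uck2 encodes the second uridine-cytidine kinase. In the KD morulae it was at 43.4, 26.5 and 19.1 FPKM, against 33.0, 26.1, 19.4 and 16.1 in control morulae, and in KD blastocysts at 19.0, 10.3, 37.7 and 18.3, against 10.6, 17.6, 15.0 and 18.2. The KD groups spread more widely than the control groups and overlap them at both stages. Its log2 differences of 0.41 (SE 0.26) and 0.34 (SE 0.28) did not pass in limma, with adjusted p of 0.308 and 0.357. In control embryos Uck2 fell by 1.17 from the 2-cell stage, at 44.8 to 48.4 FPKM, to the morula (adjusted p 3.3e-05). From there it fell by 0.58 to the blastocyst (adjusted p 0.0186), a call lost without morula control replicate 1 or 2 or blastocyst control replicate 1, with adjusted p up to 0.0608.

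Tk1 (chr11:117815526-117826092) encodes thymidine kinase 1, the cytosolic enzyme that makes dTMP from thymidine and whose level in dividing cells is tied to DNA replication. In 2-cell embryos it was at 4.76, 10.2, 9.98 and 8.82 FPKM in control and at 4.12, 4.79 and 3.82 in KD libraries. The groups touch, because the first control library lies just under the highest KD library. In morulae it was at 147, 147, 147 and 143 FPKM in control and at 79.1, 110 and 118 in KD libraries. Control blastocysts had 118, 137, 132 and 137 FPKM, and KD blastocysts 106, 75.5, 89.9 and 74.8. At both later stages all KD libraries lie below all control libraries.

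Tk1 fell in KD blastocysts by 0.60 (SE 0.16, adjusted p 0.0132), in all 4 KD libraries. Without blastocyst KD replicate 6 the difference was -0.52 and the adjusted p 0.0515, and the call held in the other 13 alternatives. In morulae the difference of -0.41 (SE 0.18) did not pass in limma, with an adjusted p of 0.15 and all 3 KD libraries lower. With FPKM as deposited it was -0.53 and passed at 0.0323. At the 2-cell stage the difference was -0.75 (SE 0.23), with an unadjusted p of 0.0087 and an adjusted p of 0.828 in limma. The knockdown effects in blastocysts and morulae differed by -0.23 (SE 0.24, adjusted p 0.572), so no difference between the stages was found. From control 2-cell embryos to control morulae Tk1 rose by 3.85 (SE 0.18, adjusted p 4.4e-11).

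Tymp (chr15:89371931-89377039) encodes thymidine phosphorylase, the thymidine counterpart of Upp1. It was at 8.34, 5.24, 4.56 and 3.16 FPKM in control morulae and at 4.49, 4.17 and 4.84 in KD morulae, which lie inside the control range. In blastocysts it was at 2.16, 3.06, 1.95 and 2.59 FPKM in control and at 5.57, 5.16, 4.16 and 6.00 in KD libraries. All 4 KD blastocyst libraries lie above all 4 control libraries, the opposite side from Upp1. Tymp rose in KD blastocysts by 0.86 (SE 0.19, adjusted p 0.00397), and the call held in all 14 alternatives, with adjusted p from 0.00209 to 0.0173. The morula difference was -0.03 (SE 0.21, adjusted p 0.93). The difference between the effects was 0.86 (SE 0.28) with an adjusted p of 0.0594 in limma, which does not pass. It passed without morula control replicate 8 (adjusted p 0.0284), without blastocyst KD replicate 5 (0.031) and with FPKM as deposited (0.0411).

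The level of Tymp is uncertain because it overlaps other genes and the libraries do not keep the strand. Of its transcript stretches of 75 bases, 39.9% also occur in Sco2 and 23.7% in Ncaph2. Sco2 was at 3.20 to 6.18 FPKM in control and 7.05 to 11.0 in KD blastocysts, so it lies on the same side as Tymp. Ncaph2 was at 13.6 to 26.7 and 21.7 to 32.0 FPKM. The part of reads from these genes in the Tymp values was not tested. In control embryos Tymp was at 6.99 to 15.5 FPKM at the 2-cell stage. It fell by 1.01 to the morula and fell by 0.82 from there to the blastocyst (adjusted p 0.000688 and 0.00722 in limma). With the replicate number as a block in limma, the call from the 2-cell stage to the morula was lost (-0.57, adjusted p 0.0859).

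Cda encodes cytidine deaminase, which turns cytidine into uridine. It was at 3.14, 1.37, 2.71 and 2.74 FPKM in control and 3.47, 2.96 and 1.72 in KD 2-cell embryos, which overlap (log2 difference 0.14, SE 0.25, adjusted p 0.937 in limma). In later stages no library reached 1 FPKM. KD morulae had 0.658 to 0.947 FPKM against 0.112 to 0.579 in control morulae, which do not overlap, but values so low were not tested. Blastocysts had 0.170 to 0.967 FPKM over both groups. Uprt, the mouse gene named for uracil phosphoribosyltransferase, was at 1.58 to 1.90 FPKM in control and 1.50 to 1.76 in KD 2-cell embryos, with a log2 difference of -0.02 (SE 0.18, adjusted p 0.99). It was listed at 0 in 11 of the 15 later libraries, and its highest value there was 0.18 FPKM.

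**Figure D2:**
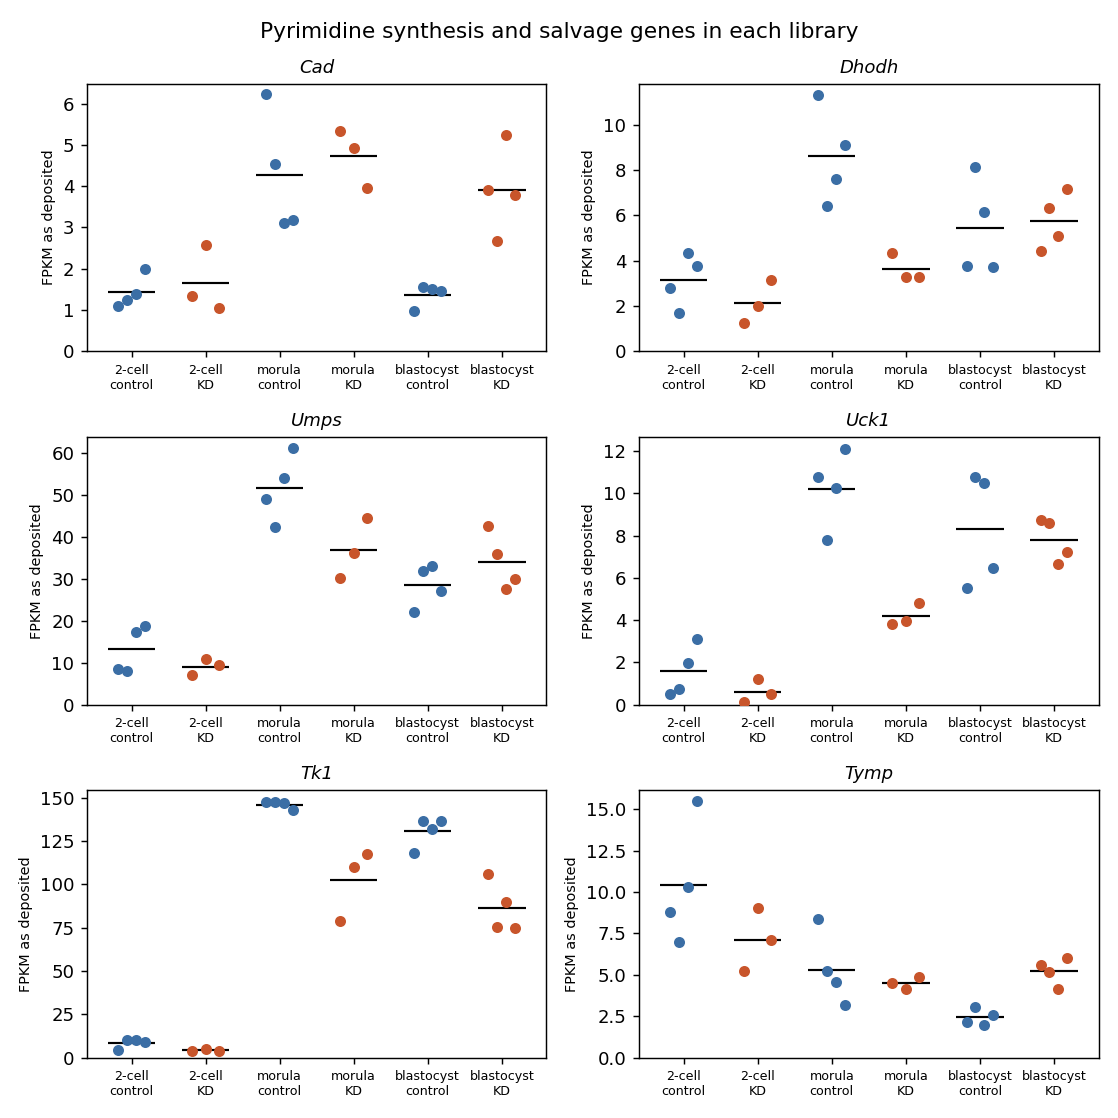
FPKM as deposited (linear axes from 0) of 6 pyrimidine synthesis and salvage genes, with a point for each library (blue control, orange KD) and a bar at each group mean. Dhodh and Uck1 are lower in KD than in control morulae, Cad and Tymp are higher in KD than in control blastocysts, and Tk1 rises from at most 10.2 FPKM at the 2-cell stage to at least 74.8 in each later library.

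At the 2-cell stage the 9 genes besides Upp1 had log2 differences from -0.75 (Tk1) to 0.14 (Cda), and the lowest adjusted p in limma was 0.828. The Tk1 difference there was as large as its later ones, in a comparison in which limma called 0 of 12160 genes, H2afz included, with 701 at an unadjusted p under 0.05. For each of the 9 genes the ranges of the KD and control libraries overlap; of the 12160 genes, 322 had all KD libraries above and 502 had all below the control libraries. In all comparisons between stages and groups the samples are whole embryos, so fewer cells of a type and less RNA per cell cannot be told apart.

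Beyond the 10 genes, 45 other genes of pyrimidine metabolism were listed, among them CTP synthetases, nucleotide kinases, enzymes of deoxynucleotide synthesis, nucleotidases, transporters and UDP-sugar enzymes. At the 2-cell stage limma called 0 of the 33 tested, with 2 at an unadjusted p under 0.05, Ugp2 and Uckl1. In morulae 1 of 34 rose, against 4.23% of all genes tested, and 4 fell, against 9.04%, with a median log2 difference of -0.12; these were Nme4 in the higher and Nme7, Nme6, Tk2 and Rrm1 in the lower direction. Tk2 entered the morula test only through the control group, where it is high: 3 of 4 control libraries and no KD library reached 1 FPKM, so its call is no support for a statement about the list. In blastocysts 7 of 36 rose, against 16.7% of all genes tested, and 12 fell, against 19.8%, with a median of -0.25. Of the 7, Slc29a3 entered only through the KD group, where it is high (1.31 to 2.48 FPKM, against 0.194 to 0.721 in control), so its blastocyst call is no such support either. Nme7 at both stages and Uckl1 in blastocysts met the minimum through the control group, with too few KD libraries at 1 FPKM to meet it alone. Those calls have the same limit. In the difference between the effects 3 of 37 were called higher (Nt5c3b, Ctps and Slc29a3), against 5.43%, and 3 lower (Ctps2, Uckl1 and Ugp2), against 6.32%. Tk2, Rrm1, Slc29a3 and Ctps lie outside the rule for naming genes and are named after their values were seen. The count in morulae was 1 in place of 5 without control replicate 7, control replicate 8, KD replicate 1 or KD replicate 2. The base catabolism genes Dpyd, Dpys and Upb1 were at or below 0.485 FPKM in every library.

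The genes of this list called with an absolute log2 difference above 1 are named by role. Ctps2 encodes a CTP synthetase, which makes CTP from UTP. It was at 5.36, 6.24, 6.71 and 5.77 FPKM in control and at 1.83, 1.07, 2.15 and 1.58 in KD blastocysts, without overlap. It fell by 1.41 (SE 0.17, adjusted p 9.0e-05), and the difference from the morula effect, which was -0.38 (adjusted p 0.166), was -1.03 (SE 0.22, adjusted p 0.00669). The more abundant Ctps was at 12.7 to 31.7 FPKM in control and 29.1 to 44.1 in KD blastocysts and rose by 0.67 (SE 0.21, adjusted p 0.0266), in the other direction, although these ranges overlap.

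Uckl1 encodes a protein related to the uridine-cytidine kinases. It was at 3.73, 7.07, 6.73 and 4.77 FPKM in control blastocysts and at 0.982, 0.897, 1.37 and 1.85 in KD blastocysts, without overlap. It fell by 1.51 (SE 0.20, adjusted p 0.000157), while Uck1 and Uck2 were not called there. Uckl1 met the minimum FPKM there through its control libraries, where it is high, so its blastocyst call is no support for a statement about the list. In the morula its difference was -0.48 (SE 0.18, adjusted p 0.11), and the difference between the effects, -1.03 (SE 0.27, adjusted p 0.0188), was lost in 4 of 19 alternatives, among them those without morula KD replicate 1 (-0.91, adjusted p 0.0623), with 0.1 added (0.0623) and without the filter on low FPKM (0.0536).

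Of 4 listed genes for UDP-sugar synthesis, 1 was called higher and 2 lower in blastocysts by mRNA level, against 16.7% and 19.8% of all genes tested, and 0 in morulae, against 4.23% and 9.04%. Ugp2 encodes the enzyme that makes UDP-glucose from UTP. It was at 126, 114, 99.8 and 106 FPKM in control blastocysts and at 30.2, 47.0, 42.9 and 46.7 in KD blastocysts, without overlap. In morulae the control libraries had 12.6 to 14.7 FPKM and the KD libraries 10.3 to 12.7, which touch. Ugp2 fell in KD blastocysts by 1.40 (SE 0.19, adjusted p 0.000169), was not called in morulae at -0.10 (adjusted p 0.725), and differed between the effects by -1.35 (SE 0.25, adjusted p 0.00222). Uap1, whose product makes UDP-N-acetylglucosamine, was at 22.7, 40.2, 45.6 and 41.7 FPKM in control and 87.7, 92.2, 101 and 83.6 in KD blastocysts. Its ranges do not overlap, and it rose by 1.31 (SE 0.18, adjusted p 0.000223).

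The remaining named genes are nucleoside diphosphate kinase family members and a nucleotidase. Nme7 was at 3.56, 5.14, 6.66 and 4.34 FPKM in control and 0.327, 1.01 and 0.271 in KD morulae, and at 12.4, 16.7, 6.60 and 15.2 in control and 0.763 to 2.53 in KD blastocysts. It fell by 1.88 (SE 0.24, adjusted p 0.0023) in morulae and fell by 2.43 (SE 0.30, adjusted p 0.000125) in blastocysts, in every KD library. At both stages Nme7 met the minimum FPKM through its control libraries, where it is high, and its KD libraries alone did not meet it. These calls are therefore no support for a statement about the list, although both held in every alternative, no filter included. Of its transcript stretches of 75 bases, 7.13% also occur in Atp1b1. Nme4, which encodes a mitochondrial form, was at 50.2, 34.9, 25.4 and 21.8 FPKM in control and 70.2, 71.1 and 40.9 in KD morulae, which overlap, and at 18.7 to 36.0 in control and 60.5 to 96.7 in KD blastocysts, which do not. It rose by 1.01 (SE 0.25, adjusted p 0.0257) and by 1.30 (SE 0.22, adjusted p 0.00079). The morula call of Nme4 was lost in 6 of 13 alternatives, among them those without control replicate 7 or 8 or KD replicate 1 or 2, with adjusted p up to 0.113 when a library was left out. Nme6 was at 69.8 to 79.2 FPKM in control and 24.8 to 40.5 in KD blastocysts and fell by 1.17 (SE 0.20, adjusted p 0.000895). Nt5c3b, which encodes the nucleotidase, was at 12.2 to 26.3 FPKM in control and 33.0 to 63.2 in KD blastocysts and rose by 1.15 (SE 0.23, adjusted p 0.00259). Its call in the difference between the effects was lost in 6 of 19 alternatives.

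**Figure D3:**
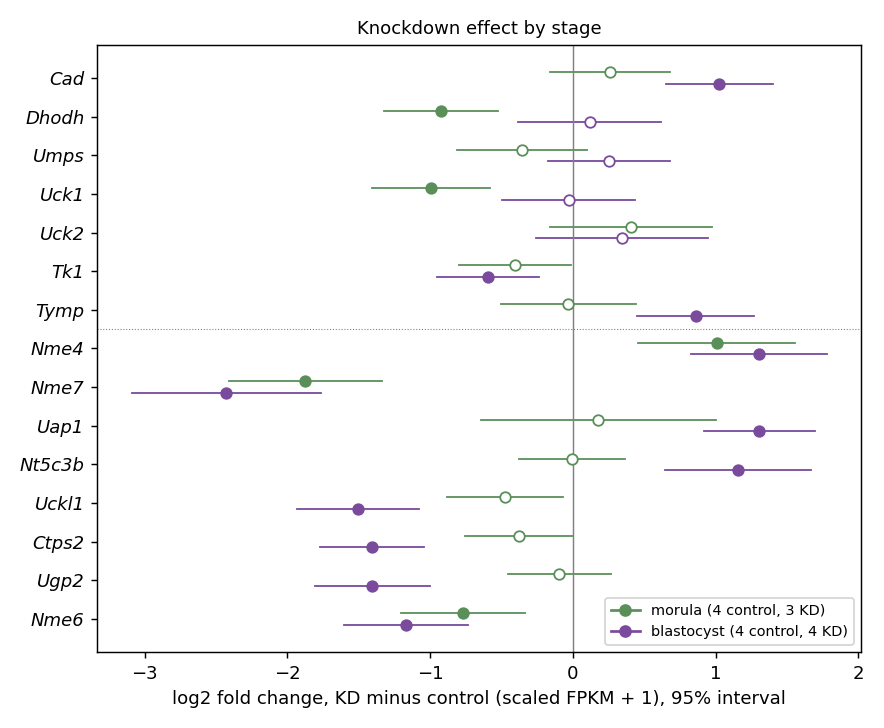
Log2 difference between KD and control on scaled FPKM + 1, with its 95% interval, for 7 tested members (above the dotted line) and 8 named genes of the wider pathway in morulae (green) and blastocysts (purple). Filled points passed the adjusted p threshold; Uck1 and Dhodh are filled in morulae only, and Cad, Tymp and Tk1 in blastocysts only.

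Marker genes show what the libraries held. All 8 listed trophectoderm markers were in the table, and their summed level was 1012 to 1505 FPKM in control and 606 to 818 in KD blastocysts, with Krt18 the most abundant (means of 799 and 390). In morulae the sums were 135 to 166 and 105 to 134 FPKM. The 6 markers of epiblast and inner cell mass summed to 184 to 299 FPKM in control and 152 to 296 in KD blastocysts, with Nanog highest, and to 202 to 257 and 101 to 161 in control and KD morulae. In blastocysts Tdgf1 (49.3 to 99.5 FPKM in control, 13.5 to 18.5 in KD) and Fgf4 (0.710 to 1.01, 0.459 to 0.554) were lower in KD without overlap. The blastocyst ranges of Nanog, Sox2, Pou5f1 and Klf2 overlap. The 5 primitive endoderm markers summed to 10.3 to 20.5 and 10.2 to 37.4 FPKM in control and KD blastocysts and to 9.01 to 28.0 and 9.45 to 10.5 in control and KD morulae, with Gata6 highest. The trophectoderm sums separate the blastocyst groups in the direction of Upp1, but Krt18 and Krt8 carry most of them. Tfap2c was at 3.20 to 8.36 FPKM in control and 10.6 to 18.4 in KD blastocysts, and Tead4 at 5.20 to 9.60 and 9.77 to 23.8, both on the other side without overlap, and the ranges of Cdx2, Gata3, Eomes and Krt8 overlap. In morulae Upp1 was higher in the KD libraries, whose sums were lower. The part of these markers in the Upp1 values was not tested.

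Markers of other cells and of earlier stages were low in later embryos. The 8 cumulus and granulosa markers summed to at most 0.369 FPKM in any morula or blastocyst library, with Star highest, and Has2, Ptx3 and Fshr were listed at 0 in all of them. Of 6 markers of 2-cell embryos 5 were in the table, and they summed to 168 to 242 FPKM in control 2-cell embryos, 1.46 to 6.03 in control and 4.50 to 9.18 in KD morulae, and 0.291 to 0.964 in control and 3.08 to 14.0 in KD blastocysts. The 6 oocyte markers, with Oosp1 highest at the 2-cell stage, summed to 743 to 1000 FPKM in control 2-cell embryos, to 4.79 to 10.4 in control and 8.45 to 11.2 in KD morulae, and to 1.77 to 2.21 in control and 2.16 to 4.89 in KD blastocysts. The part of either list in the differences above was not tested.

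The genes whose levels followed Upp1 most closely were found by Pearson correlation of log2(scaled FPKM + 1) over all 22 libraries, among 15697 genes. They were Tpi1 (r = 0.922), Anxa5 (0.921), Reep5 (0.921), Dapp1 (0.918) and Lgals1 (0.917). The libraries form 6 groups, so these values mostly describe group means and carry no p. Tpi1, which encodes a glycolytic enzyme, had means of 10.5 and 7.69 FPKM in control and KD 2-cell embryos, 5.47 and 6.38 in control and KD morulae, and 77.0 and 27.5 in control and KD blastocysts. Lgals1 ranged from 0.118 to 1.48 FPKM in morulae and had means of 924 and 118 in control and KD blastocysts. All 5 genes were highest in control blastocysts and lower in KD blastocysts. Over the 15 morula and blastocyst libraries none of these 5 was among the first 5, and by Spearman correlation over the 22 libraries 2 were.

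Of the other 9 members, the highest r with Upp1 over the 22 libraries was 0.0455 for Uck1 and the lowest -0.56 for Cad. Over the 15 morula and blastocyst libraries Cda and Uprt have no value. Among the other members, the highest r was then -0.147 for Uck1 and the lowest -0.784 for Umps, with Cad at -0.762.

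Promoter sequences are shown for 3 genes on which the results turn: Upp1, Cad, which rose in KD blastocysts, and Ugp2, which fell there. Each line gives the 250 bases before the gene's most upstream RefSeq start, 5′ to 3′ on the gene's strand, on GRCm38.p6, at chr11:9117758-9118007 (plus strand), chr5:31054530-31054779 (plus) and chr11:21371268-21371517 (minus). Upp1 has 3 RefSeq starts, and the one used lies upstream of the gene start given above. Capitals mark matches on either strand to any of 8 short motifs searched. These were GGGCGG for the GC box, CACGTG for the E-box, CCAAT for the box of that name, TATAAA for the TATA box, TGANTCA for AP-1, GGAATG for TEAD factors, GCCNNNGGC for AP-2 and AGATAA for GATA factors.
Upp1: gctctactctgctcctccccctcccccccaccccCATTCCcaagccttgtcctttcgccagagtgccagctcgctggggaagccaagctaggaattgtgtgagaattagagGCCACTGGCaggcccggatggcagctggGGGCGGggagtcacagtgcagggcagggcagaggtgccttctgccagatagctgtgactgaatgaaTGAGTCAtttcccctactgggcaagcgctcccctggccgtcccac
Cad: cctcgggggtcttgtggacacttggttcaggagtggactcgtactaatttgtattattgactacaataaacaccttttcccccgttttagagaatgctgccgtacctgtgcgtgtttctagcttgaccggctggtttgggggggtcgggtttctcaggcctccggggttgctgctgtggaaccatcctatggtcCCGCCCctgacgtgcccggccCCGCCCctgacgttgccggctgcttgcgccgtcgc
Ugp2: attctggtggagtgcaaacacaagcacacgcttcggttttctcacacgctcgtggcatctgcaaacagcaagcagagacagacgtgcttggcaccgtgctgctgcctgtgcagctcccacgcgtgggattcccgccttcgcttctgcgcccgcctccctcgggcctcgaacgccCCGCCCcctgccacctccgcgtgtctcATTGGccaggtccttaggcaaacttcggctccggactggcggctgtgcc
Upp1 has a TEAD match at -216, an AP-2 match at -139, a GC box match at -111 and an AP-1 match at -45, counted from that RefSeq start, and none of these overlap. Cad has GC box matches at -56 and -35, and Ugp2 has a GC box match at -76 and a CCAAT match at -49.

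Of the 10 members 9 were matched in the promoter table; Dhodh was not. Among these 9, the AP-1 and the TEAD letters occur only in Upp1, against 6.85% and 12.6% of the 27025 promoters searched. The AP-2 letters occur in Upp1 and Umps (13.5% of all promoters) and the GC box in 7 of 9 (33.0% of all). CCAAT occurs in Tymp and Uprt (34.5% of all), TATAAA and AGATAA only in Umps (13.0% and 10.2%), and CACGTG in none of the 9 (6.04%). The window of Upp1 holds 6 CpG sites, that of Cad 17 and that of Ugp2 21, with GC contents of 62.4%, 58.8% and 64.0%. A match is a run of letters, not a shown binding site.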

How the data were processed

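RNA-seq values of 22 libraries in 6 groups were used, grouped by their titles and labels; the number of value columns without a sample was 0. The authors aligned reads to mm10 with STAR, quantified genes with StringTie 2.1.4 and deposited FPKM; counts and the other experiments of the study were not used here. Of 55335 identifiers, 54587 matched GENCODE vM21 (GRCm38) with their version and 55154 in any version. Within each comparison FPKM were divided by median-of-ratios factors (0.884 to 1.20 over all comparisons), 1 was added and log2 taken. Genes that reached an FPKM of 1 in 3 or more libraries were fitted with limma 3.58.1 in R 4.3.3 (lmFit, eBayes with trend; no covariates), with the Benjamini-Hochberg adjustment over all genes tested. The steps were tested on simulated data. Promoters and sequences were read with Python 3.11.15, numpy 2.4.6 and pandas 2.3.3, and figures drawn with matplotlib 3.10.9.

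Depth in reads is unknown. The relative depth is the inverse of a step, the value at which FPKM times length of 13491 single-exon genes of at least 300 bases most often lay. Only low values were used, and 56 to 226 of them lay at the step in a library. Of low values, 8.14% to 17.1% lay on whole steps, within 0.02. The members and gene lists were chosen with earlier results of these data known. Genes of the wider pathway were named if called with an absolute log2 difference above 1, at most 8 per stage and direction; the 5 genes most like Upp1 were taken by Pearson correlation, and Upp2 and Uckl1 were named whatever their values. Alternatives were a pseudocount of 0.1, no filter, FPKM as deposited, the replicate number as a block, 1 fit over 22 libraries, leaving out each library, and replicate numbers split into a low and a high range as a batch, which was chosen after seeing the data.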

Additional observations from a re-analysis of the deposited data

Results flagged for a closer look

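Of 80 groups of 4 libraries of the named genes, 6 held a library far from the other 3, where chance alone gives about 1 in 20 groups. In 3 of the 6, all of Uprt, the other values were 0, so the rule had to flag them and they do not count in that comparison. Tk1 was at 143 FPKM in morula control replicate 8, below the other 3 control morulae at 147. Cda was at 0.967 FPKM in blastocyst KD replicate 5, above the others at 0.170 to 0.263. Uap1 was at 58.4 FPKM in morula control replicate 2, below the others at 156 to 165. Its knockdown effect in blastocysts minus that in morulae was 1.09, which limma did not call. Without this library it was 1.44 and was called (adjusted p 0.0122 in limma). The other 18 alternatives did not call it. Uprt was above 0 in only 1 library of 3 groups, at 0.0416 FPKM in morula control replicate 1, 0.0785 in blastocyst control replicate 1 and 0.0216 in blastocyst KD replicate 5.

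The knockdown effect differed between blastocysts and morulae by a test of the difference itself in limma for 2 of 7 members (against 5.43% higher and 6.32% lower of all 12727 genes), for H2afv and for 4 pathway genes named by the rule. All 4 meet the rule by a large difference in blastocysts, which favours a difference between the stages. The log2 values, blastocyst minus morula, were 0.93 for Uck1 (adjusted p 0.0475), 1.01 for Dhodh (0.0397), 1.12 for Nt5c3b (0.0263), -1.03 for Uckl1 (0.0188), -1.03 for Ctps2 (0.00669), -1.35 for Ugp2 (0.00222) and 1.04 for H2afv (0.0207). Slc29a3 (1.42, adjusted p 0.00167) and Ctps (0.96, 0.0301), named outside the rule, also passed. Adjusted p over the 19 alternatives ran to 0.144 for Uck1, 0.114 for Dhodh, 0.0935 for Nt5c3b, 0.0843 for Uckl1, 0.0355 for Ctps2, 0.0273 for Ugp2 and 0.0768 for H2afv. For Upp1 the difference was -3.84, and -4.61 with 0.1 added in place of 1. It was not tested. It is given because every KD morula library lay above, and every KD blastocyst library below, the control libraries of its stage.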

How the results depend on the processing

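Calls of Cad and Tymp in blastocysts and of H2afz and H2afv in morulae and blastocysts held in every alternative run. At the 2-cell stage 33 genes were called in 1 fit over 22 libraries and 0 to 3 when a library was left out. In morulae no filter gave 412 genes (32900 were then tested), 0 members and 1 pathway gene; leaving out a library gave 551 to 1744 genes and 1 to 6 pathway genes. For the difference between the effects, no filter gave 988 genes, 0 members and 3 pathway genes, and leaving out a library 962 to 1722 genes and 0 to 3 members. From control morulae to control blastocysts, leaving out a library left 3 to 5 members. With replicate number as a block, 3 pathway genes were called in morulae, and 1 member and 3 pathway genes in the difference between the effects. That member was Tymp (adjusted p 0.0299), which the main fit did not call, while Uck1 (0.144) and Dhodh (0.114), which it did call, were not called. All genes called with the block were 0, 1624, 4571, 1092 and 10902 in 2-cell embryos, morulae, blastocysts, the difference between the effects and control morulae against 2-cell embryos. With the block, a library whose number is absent from the other group of its stage adds nothing to the knockdown difference. In morulae only replicates 1 and 2 occur in both groups, so that difference rests on those libraries alone. Of the 5 genes most like Upp1, 2 were among the first 5 by Spearman and 0 over 15 libraries. Beyond the number of genes or libraries used, the cause was not tested.

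These differences changed sign, and none was called. Uprt at the 2-cell stage was 0.007275 with the block, 0.004538 in 1 fit and -0.06849 to 0.0308 with a library left out. Leaving out a library gave, at the 2-cell stage, -0.02696 to 0.3335 for Cda and -0.08017 to 0.2886 for Cad, in morulae -0.1856 to 0.119 for Tymp, and in blastocysts -0.1454 to 0.08104 for Uck1 and -0.02771 to 0.2826 for Dhodh. For Uck2 the difference between the effects was 0.05013 with FPKM as deposited and -0.3573 to 0.1745 with a library left out, and Uprt between control morulae and blastocysts was -0.01237 to 0.02865.

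Dhodh from control morulae to control blastocysts (-0.61, adjusted p 0.0393) lost its call in 9 of 11 alternatives, with adjusted p up to 0.129, and Tymp from 2-cell embryos to morulae with the block (adjusted p 0.0859). Uck1 at the 2-cell stage has values for 10 of 13 alternatives, since it fell below the filter in 3. Same-numbered libraries were not paired in the fits: after removing group means, they correlated at 0.0146 to 0.214 in 2-cell embryos, 0.0944 to 0.181 in morulae and -0.111 to 0.354 in blastocysts. A low and a high range of replicate numbers fitted as a batch, an alternative chosen after seeing the data, gave 0, 2038 and 4520 genes and 0, 2 and 3 members in the 3 stages. Without counts, noise in low FPKM cannot be separated from differences between pools.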
